A study of Mus musculus with 2343 samples.

Results

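The cells described here are single medullary thymic epithelial cells with high surface MHC class II, sorted from mice that carried a floxed Eed gene and a ZsGreen reporter (strain label Eedflfl::ZsGreen), with no Cre named for them and a reporter status of negative. They are the study's wild-type medullary cells, and their Eed gene, which encodes a core subunit of Polycomb Repressive Complex 2, should be intact under these labels. Members were the wells so labelled on the plates SCGC1373, SCGC1379, SCGC1380 and SCGC1381 that held at least 50000 counts assigned to genes and at least 1000 genes with a count. Of the wells with this label 57.7% passed. They were 48, 51, 110 and 77 wells on the 4 plates, or 41.7, 44.7, 73.8 and 65.3% of those sorted there, out of 2343 samples in the whole series. The study placed these cells beside cortical epithelial cells and beside cells of mice that carry a beta5t-Cre with floxed Eed, in single-cell, bulk and chromatin experiments. Wild-type cortical cells (strain label Eedflfl, filtered in the same way) serve below as the comparison, and the reporter-negative cells of the Eedflfl::ZsGreen::beta5tCre strain stand beside some values. The labels name no animal, so the cells of a group count as 1 sample and no difference between groups was tested.

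Medullary thymic epithelial cells show developing T cells the proteins of other organs. They transcribe genes that elsewhere belong to gut, pancreas, liver, lung or skin, and T cells that bind those products are deleted or become regulatory T cells. The transcriptional regulator Aire and the zinc-finger factor Fezf2 each drive part of this promiscuous expression, and cells with high MHC class II are the stage at which Aire is made. Such cells are known to arise from medullary cells of lower MHC class II, to leave the cell cycle and to go on to keratinised, tuft-like or microfold-like states.

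Several wells did not hold what their labels state, and these come before the results. On SCGC1373 and SCGC1379, 40 of the passing wells carried the library of another passing well. Their counts differed by a chi-square of 0.971 to 3.30 per gene. Every other pair of passing wild-type medullary wells on a plate differed by at least 8.76. The 40 wells formed 19 libraries, lay in rows O and P or columns 9 and 11, and had correlations of 0.905 to 0.990 between log2 CPM values. No such pair occurred on SCGC1380 and SCGC1381 or among the cortical cells. Reporter-negative cells held such pairs as well, in 12 wells of SCGC1373 and 10 of SCGC1379. Wells were compared only within their own group. Libraries shared between wild-type and Eed-strain wells were therefore not looked for. Each shared library was counted 1 time, which left 40, 38, 110 and 77 cells on SCGC1373, SCGC1379, SCGC1380 and SCGC1381, the cells of all results below. On SCGC1380, 3 of the 14 no-template control wells of the series (A1, A2 and A3) held 51838, 73567 and 67466 gene counts and would have passed the filter, while the other 11 held at most 0.729% of the lowest of these. Those 3 wells carried H2-Aa at 10822, 6593 and 8212 CPM (counts scaled to the library total), beside 12467 CPM over the cells, and well A1 carried 35 counts of Aire. Among the cells, 12 held no more counts than the fullest of these wells, 5 of them on SCGC1380. What reached these wells was not tested, and results were recomputed without SCGC1380 and without those 12 cells.

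These cells held 50093 to 1773634 gene counts, with a median of 302745, and 84340471 counts together. The median cell had 5521 genes (95% interval of the median 5420 to 5721, quartiles 4502 and 6230), or 4433 when every cell was reduced to 50000 counts. Cortical cells had 5010 genes at the same depth. Spike-in RNA took a median of 37.7% of the counts in the medullary wells and 0.108% in the cortical wells, so the 2 cell types differed in library preparation as well as in type, and the 2 cannot be told apart in any comparison between them. Mitochondrial genes took a median of 4.21% of the counts, and 3 cells exceeded 20%.

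The label was checked against 6 genes of mature medullary cells. Levels below are CPM of the summed counts of all cells. They are not scaled to transcript length, so they compare cells for 1 gene and not genes with each other. Intervals are 95% and cover counting error only, because the reads carry no molecular identifiers.

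Aire (chr10:78030022-78043610, GRCm38) had at least 1 count in 89.8% of the cells (exact binomial interval 85.5 to 93.2%). Its level was 637, 883, 1048 and 1091 CPM on SCGC1373, SCGC1379, SCGC1380 and SCGC1381, and 966 CPM over all cells (exact Poisson interval 960 to 973). SCGC1373 was the lowest, while its share of cells with a count, 92.5%, was the highest of the 4. Across cells the lowest value was 0, the median 660 and the highest 6402 CPM, with quartiles at 99.2 and 1438 CPM. In cortical cells Aire was at 5.58 CPM and had a count in 4.78% of the cells. The ratio was 173.3.

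Fezf2 (chr14:12338992-12346803) had a count in 87.9% of the cells (83.4 to 91.6%) and stood at 412.9, 683.3, 488.8 and 488.5 CPM on the 4 plates. SCGC1379 was the highest, and the other 3 plates lay close together. The median cell held 330 CPM and the highest 3720 CPM. Cortical cells held 10.8 CPM, with a count in 6.25% of them. Aire and Fezf2 were found together in 82.3% of the cells, against 78.97% from the product of their shares. Aire alone was found in 20 cells, Fezf2 alone in 15 and neither in 12. Cells with neither gene had a median of 208575 counts and those with both 318456.

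MHC class II genes were present in nearly every cell. H2-Aa (chr17:34282744-34287823), which encodes an alpha chain of MHC class II, had a count in all cells but 1 and stood at 11577, 13130, 12559 and 12420 CPM on the 4 plates. Cd74 (chr18:60803849-60812652), the invariant chain that escorts class II through the cell, had a count in every cell and stood at 22872, 14749, 19722 and 17695 CPM. In H2-Aa the plates lay close together, and in Cd74 SCGC1373 was the highest and SCGC1379 the lowest. Cortical cells also held both, at 4994 CPM for H2-Aa and 12335 CPM for Cd74, so these genes separated the 2 cell types by only 2.50 and 1.52 times.

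Ubd (chr17:37193892-37196101), which encodes the ubiquitin-like protein FAT10, had a count in 98.1% of the cells and stood at 3398, 3989, 5501 and 5384 CPM on the 4 plates. It ranged over cells from 0 to 57111 CPM around a median of 3310. In cortical cells it stood at 61.8 CPM, with a count in 20.2% of the cells, a ratio of 78.7. Cd80 (chr16:38457430-38495958), a ligand that costimulates T cells, had a count in 46.4% of the cells (40.3 to 52.6%) and stood at 34.7, 24.4, 48.1 and 42.4 CPM. It was found in 36.8% of the cells when each was reduced to 50000 counts, and in 2.57% of cortical cells. At least 3 of these 6 genes were found in 98.5% of the medullary and 26.1% of the cortical cells, and at least 4 in 96.2% and 4.41%. H2-Aa and Cd74 are in nearly every cortical cell too, so the label rests on the other 4 genes.

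**Figure D1:**
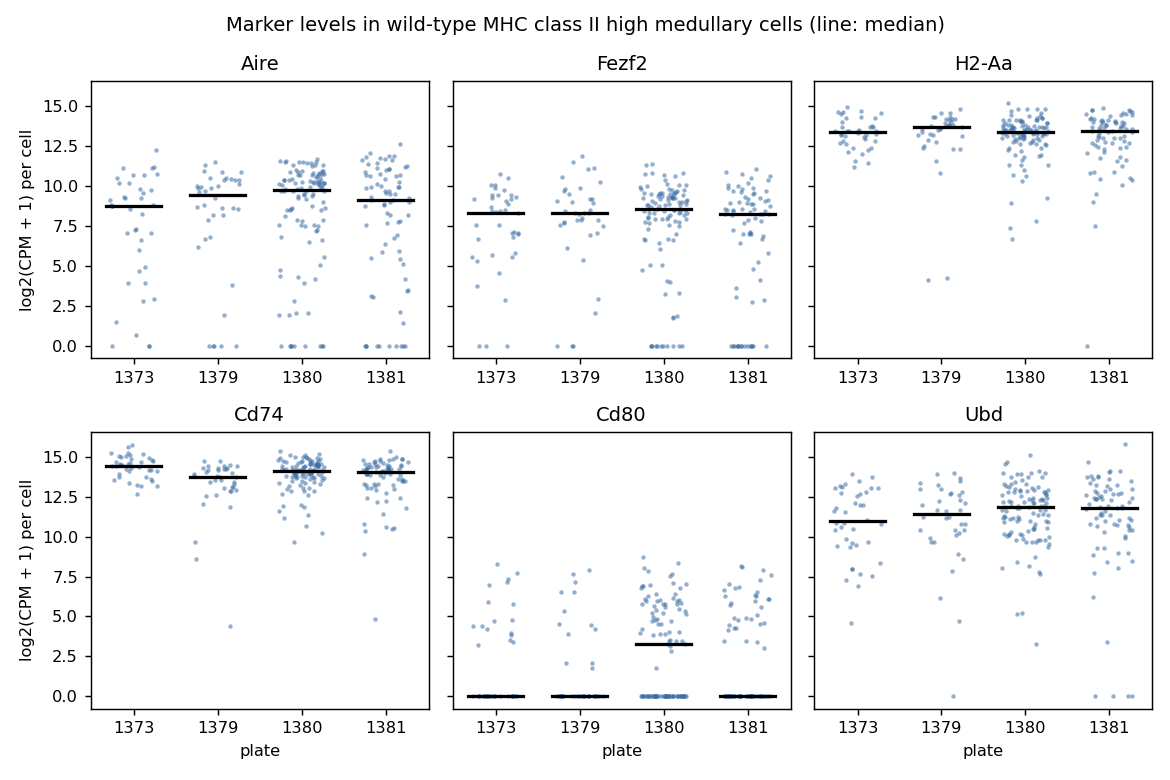
Level of the 6 marker genes in each cell, as log2(CPM + 1), by plate; points are cells and lines are plate medians. In most cells H2-Aa and Cd74 form narrow bands near the top on every plate, but a few cells of SCGC1379, SCGC1380 and SCGC1381 lie far below. Aire and Fezf2 spread from 0 upward, and Cd80 is at 0 in more than 50% of the cells of 3 plates.

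A second set of libraries from the same sort gate gave levels without single-cell capture. In bulk RNA of about 1000 cells (3 units, each the sum of 3 libraries with one number), Aire was at 207.9 ± 33.5 CPM (SD, n = 3), Fezf2 at 521.96 ± 37.4, H2-Aa at 6268 ± 643, Cd74 at 17956 ± 2964, Cd80 at 43.7 ± 6.79 and Ubd at 6602 ± 301.5. Fezf2, Cd74 and Cd80 thus lay near their single-cell levels, whereas Aire and H2-Aa were higher in the summed single cells than in any bulk unit and Ubd was lower than in any. In bulk RNA fewer cells of a type and less RNA per cell cannot be told apart, and the 2 kinds of library were prepared differently. Across 21089 genes, log2 levels in the summed cells and in bulk had a Pearson correlation of 0.834, over genes, which are not independent. Of 19264 genes at 1 CPM or more in the bulk units, 97.5% had a count in at least 1 cell. Wells sorted with 100 cells were shallow (10332 to 129627 gene counts, 6 wells) and held Aire at 290 to 1035 CPM.

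H2-Aa varied together with H2-Eb1 and H2-Ab1 from cell to cell. Across these cells, log2(CPM + 1) of H2-Aa had a Pearson correlation of 0.859 with H2-Eb1, a beta chain of the other class II isotype, and of 0.855 with H2-Ab1, its own beta chain. Within plates the correlation of H2-Aa with H2-Eb1 was 0.844 to 0.890. The points share depth and library: H2-Aa itself had a correlation of 0.272 with the log of the counts per cell. The pair H2-Aa and Ciita, the class II transactivator, had a correlation of 0.251 over the same cells, and H2-Aa and Aire 0.444. With the class II genes H2-DMa and H2-DMb1 it was 0.577 and 0.468. With B2m, of class I, it was 0.650 (within plates -0.0256 to 0.720) and with Ubd 0.619, so positive correlations were not limited to class II genes. By ranks, the Spearman correlation of H2-Aa was 0.873 with H2-Eb1 and 0.839 with H2-Ab1, but 0.383 with B2m and 0.476 with Ubd. With H2-DMa and H2-DMb1 the Spearman values were 0.497 and 0.544. Of the 16 class II presentation genes listed, 16 had a count in more than 50% of the cells and 9 in more than 90%, against 8.74% and 1.19% of the 45317 genes of the table.

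The 250 bases before the start sites of H2-Aa and H2-Eb1 are shown because these genes moved together over cells, with capitals marking a CTGATTGG, the core of the Y box that class II promoters share. Both are 5′ to 3′ on the strand of the gene, from RefSeq on GRCm38.p6, at chr17:34287824-34288073 (minus strand) and chr17:34305617-34305866 (plus strand).
H2-Aa: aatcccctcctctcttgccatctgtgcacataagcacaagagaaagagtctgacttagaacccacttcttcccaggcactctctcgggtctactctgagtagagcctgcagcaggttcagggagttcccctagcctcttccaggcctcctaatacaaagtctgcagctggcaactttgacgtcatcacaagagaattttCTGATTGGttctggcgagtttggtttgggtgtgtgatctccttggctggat
H2-Eb1: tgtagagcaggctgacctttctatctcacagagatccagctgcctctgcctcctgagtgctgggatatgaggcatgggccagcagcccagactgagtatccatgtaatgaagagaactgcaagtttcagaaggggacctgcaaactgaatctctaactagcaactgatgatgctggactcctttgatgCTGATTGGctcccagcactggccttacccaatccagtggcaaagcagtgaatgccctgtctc
The motif ended 43 bases before the start site of H2-Aa and 54 bases before that of H2-Eb1. It was searched on both strands and was chosen with these sequences in view. Of 32851 promoter windows of this length, 1258 (3.83%) held it. Among the 11 class II presentation genes with an entry, H2-Aa, H2-Eb1, H2-Eb2 and H2-Oa held it, and Ctsl, Ctss, H2-DMa, H2-DMb1, H2-DMb2, H2-Ob and Ifi30 did not in these windows. A match describes the letters and shows no binding.

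Other genes of antigen presentation and of the medullary programme followed by list. In the comparison with wild-type cortical cells, 14469 genes reached 5 CPM in either type. Of these, 21.5% were at least 4-fold higher in the medullary cells and 10.7% at least 4-fold lower, with no test behind either share. Of 16 class II presentation genes, 6 were higher by that measure (H2-DMb2, H2-Oa, H2-Ob, Ctss, Ifi30 and Ctsh) and 1 was lower (Ctsl). Ctss, cathepsin S, which trims the invariant chain in medullary and myeloid cells, was at 226.9, 774.5, 562.2 and 602.5 CPM on the 4 plates and at 21.4 CPM in cortical cells. Ctsl, cathepsin L, the protease cortical epithelium uses for this, was at 627 CPM against 7995 CPM in cortical cells. All 17 class I presentation genes listed lay within 4-fold of the cortical level, B2m, the light chain of class I, among them at 17210 CPM against 6161.

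Of 17 costimulatory and cytokine genes, 14 were compared, 6 were higher in medullary cells (Cd80, Cd40, Icosl, Pdcd1lg2, Tnfsf9 and Cd70) and none was lower. Cd40, a receptor through which T cells license medullary cells, stood at 185.9, 501.3, 447.6 and 387.8 CPM by plate and at 28.7 CPM in cortical cells. SCGC1373 was the low one. Icam1, an adhesion ligand for T cells, was at 930 CPM against 569 CPM, within 4-fold. Of 31 compared regulators of medullary differentiation, 9 were higher and 5 lower. Tnfrsf11a, the receptor RANK that induces Aire, was among the higher ones, at 176.6 CPM and in 81.1% of the cells, against 10.3 CPM and 6.25% of cortical cells. Trp63, a basal epithelial factor, and Pax1 and Eya1, factors of thymus organogenesis, were among the lower ones, Trp63 at 60.8 CPM against 758 CPM.

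Of 15 chemokine genes compared, 10 were higher than in cortical cells and 2 were lower. Cxcl10, a ligand of CXCR3, was at 601.8, 1282, 1222 and 1199 CPM by plate and at 197.7 CPM in cortical cells. Ccl19, a CCR7 ligand that draws thymocytes into the medulla, had a count in 80.4% of the medullary cells and in no cortical cell, where a count of 0 allows a share of up to 1.10%. Cxcl12, by contrast, which holds thymocytes in the cortex, was at 21.9 CPM against 2096 CPM. Of 12 cortical genes listed, 9 were at least 4-fold lower in the medullary cells, among them Prss16, a thymus-specific serine protease, at 67.6 CPM against 3443 CPM. Tbata, listed with them, was found in 83.02% of the medullary and 76.8% of the cortical cells.

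Genes of Polycomb Repressive Complex 2, the complex the study removes elsewhere, and of Polycomb Repressive Complex 1 were measured in these intact cells. Eed had a count in 54.3% of the cells and stood at 40.5, 41.3, 29.8 and 45.8 CPM on the 4 plates, beside 34.2 CPM in cortical cells. Ezh2, the methyltransferase subunit common in dividing cells, was at 62.2 CPM against 14.1 CPM, the 1 gene of 21 compared Polycomb genes that was more than 4-fold higher. Phf1, of Complex 2, and Ring1, Rnf2 and Pcgf2, of Complex 1, were more than 4-fold lower. Of all genes compared, 21.5% were higher and 10.7% lower.

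Tissue-restricted antigens were counted over 87 genes, in lists of gut, endocrine and neural, and liver, airway and secretory products. Of these, 84 had a count in at least 1 cell. Prl, Mog and Lalba, which encode prolactin, a myelin glycoprotein and alpha-lactalbumin, had none, and none in any cell allows a share of up to 1.13%. Most antigens were rare: 51 of the 84 were found in fewer than 10% of the cells, and the median antigen in 6.98%. The rest of the transcriptome had the same rarity, since the median of all 27812 genes found was 6.23% of the cells. Reg3g, Csn2, Cdx1 and Mbp were the 4 found in more than 50%.

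The antigens differed from most genes found in the level of their highest cell. Of the 84, 55 (65.5%) reached 1000 CPM in at least 1 cell, against 4176 of all 27812 genes found (15.02%), and 14 reached 10000 CPM. Because CPM is not length-scaled, these shares depend on transcript length as well as on molecule number. The antigens were chosen with earlier results of these data known. The genes they are set against include every gene with a count, 3874 of them found in 1 cell. Ttr, transthyretin of liver and choroid plexus, was found in 16 cells, with 43837 and 6073 CPM in the top 2 and 565 CPM in the next. Iapp, the islet hormone amylin, was found in 67 cells, with 33991 and 11508 CPM in the top 2. Ins2, an insulin gene that Aire controls in the medulla, was found in 11 cells, with 1505 CPM in the highest. Csn2, beta-casein of milk, was of another kind: it was found in 82.6% of the cells, stood above 1000 CPM in 41.1% of all cells and reached 14154, 12524 and 11481 CPM in the top 3.

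A medullary cell held a median of 10 of the 87 antigens (interval 9 to 10, quartiles 6 and 14, range 0 to 59). By plate the medians were 9, 10.5, 7.5 and 12 on SCGC1373, SCGC1379, SCGC1380 and SCGC1381. Cortical cells held a median of 1, and 31.99% of them held none, as did 1 medullary cell. With every cell reduced to 50000 counts the medians were 7.12 in medullary, 0.824 in cortical and 5 in reporter-negative medullary cells. Without this reduction, cells with an Aire count held a median of 10 antigens and those without one 6, and depth was not matched between them. Of the antigens compared with cortical cells at 4-fold, all 24 of the gut list were higher, as were 15 of 18 endocrine and neural genes and 17 of 18 liver, airway and secretory genes. The share over all genes compared was 21.5%. A gene needed 5 CPM in either type, and most of these antigens reached it in medullary cells alone, which largely fixed these counts. Lists of B cell, myeloid and thymocyte genes gave 10 of 10, 11 of 12 and 8 of 11 higher, and that of class I genes 0 of 17.

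**Figure D2:**
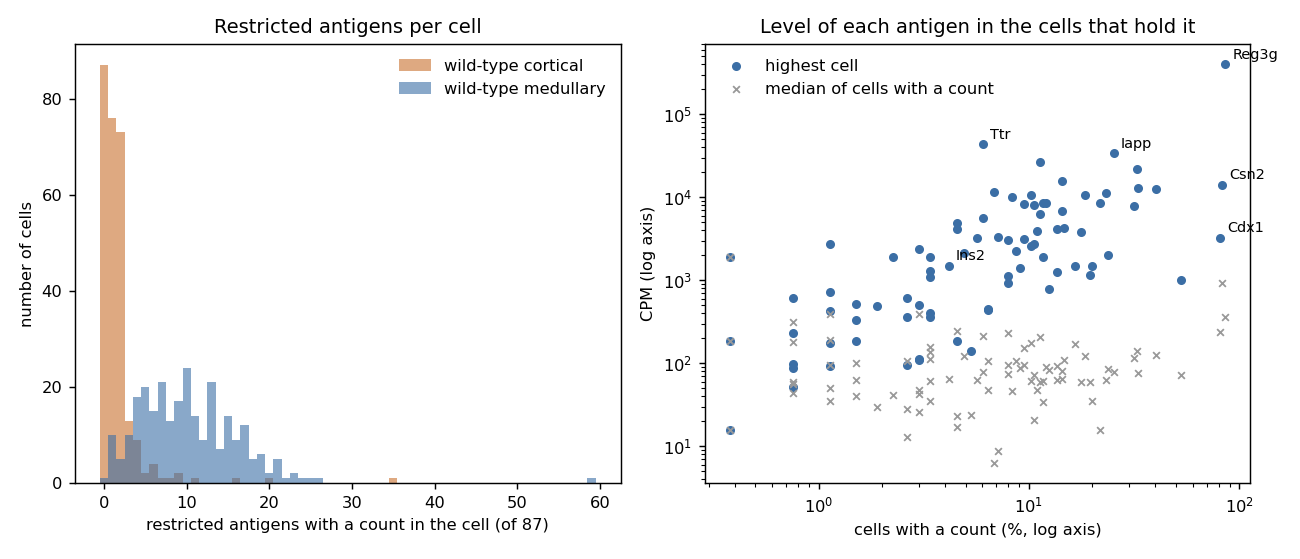
Left, number of the 87 listed antigens with a count in each cell, for medullary and cortical cells. Right, for each of the 84 antigens found, the CPM of the highest medullary cell and the median of the cells with a count, against the share of cells with a count (both axes logarithmic); highest cells reach far above the medians, up to 404270 CPM for Reg3g.

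The antigens found differed from cell to cell. Over the 78 antigens found in fewer than 25% of the cells, 83.8% of the cells held a set that no other cell held. At least 1 of these antigens was found in 93.6% of the cells, and of the 30628 pairs of such cells 54.6% shared none. The limit of 25% itself favours distinct sets and unshared pairs. What shares rarity alone would give was not computed. The cell with 59 antigens (well N22 of SCGC1381) stood apart: it had 13138 genes from only 141078 counts, the highest number of genes of all cells, beside 430741 spike-in counts. It held Aire at 1120 CPM and H2-Aa at 12050 CPM. Whether it held more than 1 cell was not tested. The next cell by genes had 10222, and leaving out the 2% of cells with the most genes left the median number of antigens at 10.

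Pairs of neighbouring genes of the same family were set against the product of their shares of cells. Of 39 pairs within 7 families in which both genes were found in at least 5 cells, 37 pairs were found together in more cells than the product of their shares gives, and 16 in at least 2 times as many. The median ratio was 1.37. Cells of greater depth hold more of every gene, which raises all such ratios, and pairs of the same genes taken from different families give that background: 85.1% of them were above expectation, against 94.9% within families, and 18.8% were at least 2 times the expected number, against 41.03%. The median ratio across families was 1.24, and the difference was not tested. Fga and Fgg, 2 chains of fibrinogen, were found together in 7 cells against 0.747 expected. Gkn1 and Gkn2, gastric mucosal proteins, were together in 5 cells against 0.543, and Reg3a and Reg3b, gut antimicrobial lectins, in 7 against 0.932. Apoa4 and Apoc3, intestinal and hepatic apolipoproteins, shared 30 cells against 11.4. S100a8 and S100a9, the chains of calprotectin, shared 52 against 26.9. The lowest pair was S100a9 and S100a5, in 2 cells against 4.21. Reads of near-identical copies such as Reg3a and Reg3b may have been split between them. With a minimum of 5 counts, 15 of 35 pairs were at least 2 times the expected number.

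The variation between cells was ranked over 12554 genes found in at least 5% of the cells at a mean of at least 5 CPM, by how far the squared coefficient of variation lay above its running median at that mean. The 20 most variable genes were Ttr, Scgb1a1, Ccl22, Reg3g, Tac1, Ctsk, Prap1, Sprr2i, Iapp, Cdkn1c, Dppa3, Spp1, Penk, Npy, Crisp1, Ccl9, Car3, Ccl20, Ang4 and Cryab. Among them are genes of secreted proteins such as Ttr and Scgb1a1 and of the chemokines Ccl22, Ccl9 and Ccl20. Others encode proteins that stay in the cell, such as Cdkn1c, a cyclin-dependent kinase inhibitor, Car3, a carbonic anhydrase, and Cryab, a chaperone. Their 20 highest values lay in 18 different cells. Reg3g, a gut antimicrobial lectin, had a count in 86.04% of the cells and a median of 361.9 CPM in them, but 1 cell held 404270 CPM, 40.4% of all its counts, and the next 75436 CPM. Scgb1a1, the secretoglobin of airway club cells, had a count in 30 cells, with 26500 CPM in the highest and 5974 CPM in the next. Ccl22, a chemokine of CCR4, had a count in 60 cells, of which 8 were above 1000 CPM.

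Of the 87 antigens, 48 entered this ranking and 33 of them (68.8%) were in its top 5%. Their median residual was 1.09 on the log10 scale, against 0.00 for all genes. A gene found in few cells reaches the entry mean of 5 CPM only through high values in those cells. Entry to the ranking thus favoured large residuals among rare antigens, and the share of 68.8% is no test of them. The MHC class II markers lay at the other end, H2-Aa at rank 11942 and Cd74 at rank 12270 of 12554. Aire was at rank 4050, Fezf2 at 3979, Ubd at 3080 and Cd80 at 9279. For the 20 most variable genes, 0.209 to 7.70% of the variance lay between plates, Ccl22 being the lowest and Ccl20 the highest. The 5 highest cells held 60.4 to 98.5% of the CPM of each gene, so a large share between plates was hardly possible. Ccl20 had a count in 42.5, 7.89, 17.3 and 44.2% of the cells on SCGC1373, SCGC1379, SCGC1380 and SCGC1381. Ccl22 had one in 22.5, 28.9, 22.7 and 19.5%.

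**Figure D3:**
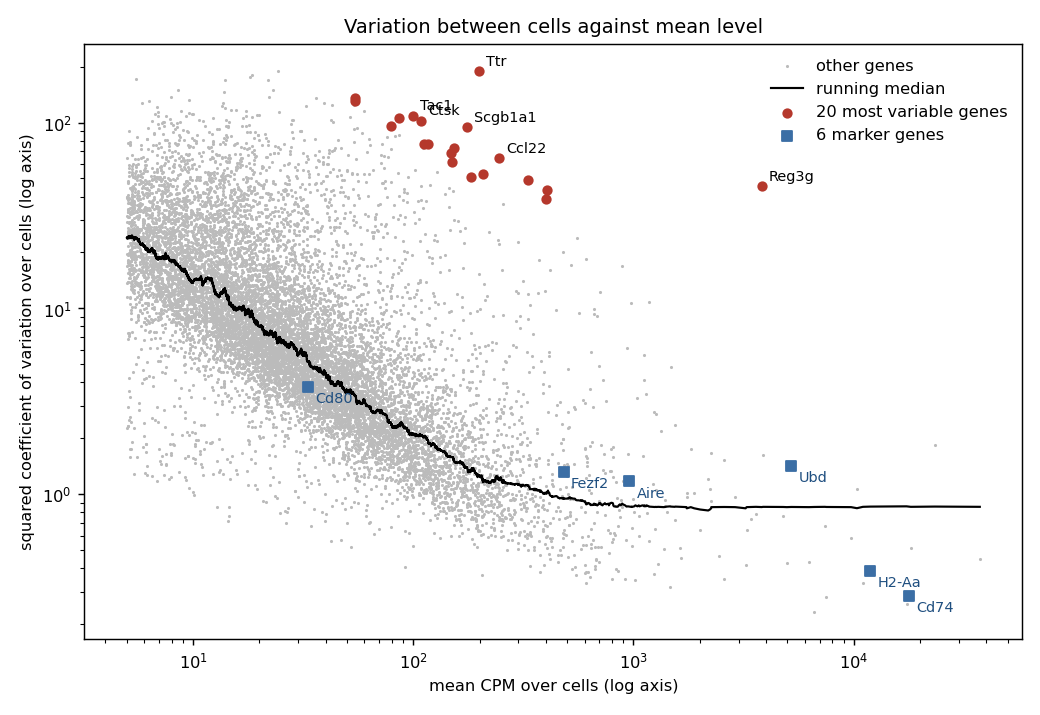
Squared coefficient of variation of CPM over the cells against mean CPM for 12554 genes (both axes logarithmic), with the running median as a line. The 20 most variable genes, in red, lie far above the line with Ttr highest, and H2-Aa and Cd74, in blue, lie below it.

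Adding cells added genes. The cells together had 27812 genes with a count, of which 15704 were in fewer than 10% of the cells, 3874 in 1 cell and 1.93% in more than 90% of them. At 50000 counts per cell, 1 medullary cell gave an expected 4311 genes and 1 cortical cell 4869. The order turned at 10 cells, with 12862 genes in medullary and 12734 in cortical cells, and held at 25 and 50 cells. It turned back at 100 cells, and at 250 cells there were 25477 genes in medullary and 27681 in cortical cells. The medullary and cortical libraries were prepared on different plates. Reporter-negative medullary cells had 12345 genes at 10 cells and 24725 at 250 cells. They came from the same 4 plates as the wild-type cells but in other proportions. Within SCGC1373, SCGC1379, SCGC1380 and SCGC1381 their median genes per cell at 50000 counts were 4769, 3934, 4606 and 3832, beside 4758, 4325, 4494 and 4327 in wild-type cells, so neither group was higher on every plate.

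**Figure D4:**
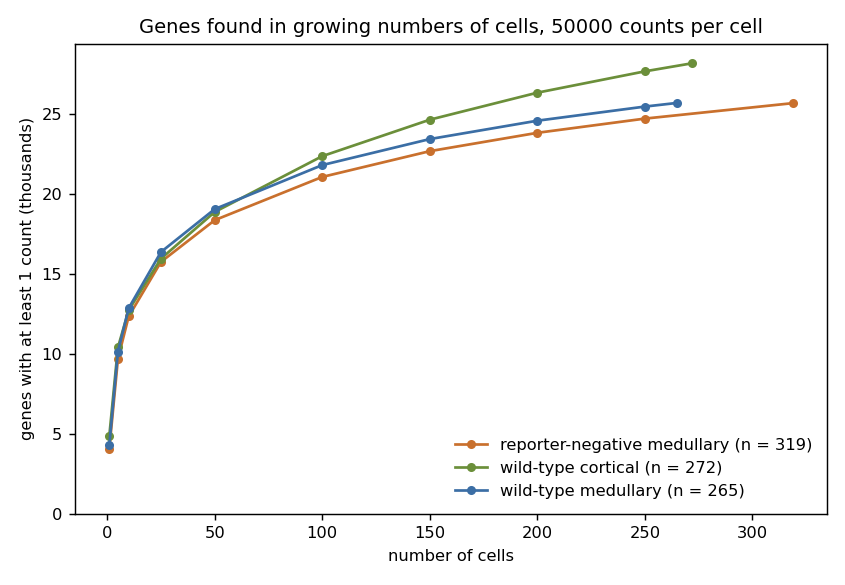
Expected number of genes with at least 1 count in a growing number of cells, each reduced to 50000 counts, for wild-type medullary, wild-type cortical and reporter-negative medullary cells. The medullary curve lies above the cortical one from 10 to 50 cells, and from 100 cells on the cortical curve is the highest.

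Clustering on the 1000 most variable genes divided the cells into 8 groups of 62, 52, 37, 37, 31, 27, 13 and 6 cells. The defining genes are given as a description, since they were used to form the groups, and groups were named only from the marker genes listed for each cell type. Levels in a cluster are means of CPM over its cells. Cluster 1 (62 cells) was led by S100a8, Csn2, Tnmd, Serpinb12 and Sprr1a. It held Aire at 1300 CPM in all its cells and a median of 15 antigens. Cluster 2 (52 cells) was led by Hdc, which makes histamine, and by Crip3, Gm13391, Slc2a6 and Cd72. It held the highest Aire level of the 8, at 1599 CPM, and Fezf2 at 823 CPM, but a median of 7 antigens. Of its cells, 36 came from SCGC1380 and 1 from SCGC1381.

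Cluster 3 (37 cells) was led by Oit1, Slc5a9, Scd1, Bcl2a1b and Gsta2. Aire was at 398.1 CPM, and 3 of 10 markers of keratinised cells that follow the Aire stage were higher than in other cells: Sbsn, Spink5 and Grhl1. Spink5, a protease inhibitor of the epidermis, was at 462.8 CPM in it, or 255.6 CPM without its highest cell. It was at 557.4 CPM in cluster 8, or 21.4 CPM without 1 cell, at 96.04 CPM in cluster 4 and at under 12 CPM in the other clusters. Cluster 4 (37 cells) was led by Nos2, Skint9, Soat2, Anxa10 and Igf1. It had the highest Cd80, at 76.8 CPM, and the highest Ubd, at 10287 CPM. It also held Ly75, Ccl25 and Dll4, listed as cortical genes, at 278.6, 2123 and 92.3 CPM. Their medians over its cells were only 75.2, 116.1 and 0 CPM. Ccl25 was at 2451 CPM in cluster 7, or 578.2 CPM without its highest cell. Psmb11, the cortical proteasome subunit, was at 19.7 CPM in cluster 4 against 790 CPM in cortical cells.

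Cluster 5 (31 cells) was cycling-like. It was led by Mki67, Ccna2, Top2a, Cdk1 and Ccnb1, and all 8 cycling markers were higher in it, Mki67 at 572 CPM and in all 31 cells. Its cells held 2.29 gene counts per spike-in count, the most of the 8 clusters, and a median of 6 antigens. Aire was at 793 CPM in it and had a count in 96.8% of its cells. Over all cells, 74 held at least 3 of the 8 cycling markers, 31 of them in this cluster. In the comparison with cortical cells, 23 of 34 cell cycle and replication genes were at least 4-fold higher and none was lower. Of all genes compared, 21.5% were higher and 10.7% lower, and cell type and library preparation cannot be told apart there.

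Cluster 6 (27 cells) was Ccl21a-type-medullary-like. It was led by Lifr, Krt5, Apoe, CT868723.2 and Tgfbi, and 6 of 7 markers of medullary cells that make the chemokine Ccl21a were higher in it. Ccl21a had a count in 25 of its 27 cells, at 41.4 CPM, and Krt5, a keratin of basal cells, stood at 2167 CPM. Aire was at 77.2 CPM, or 46.5 CPM without its highest cell, Cd80 had a count in 2 of the 27 cells, H2-Aa at 5580 CPM, and the median cell held 3 antigens. Of its cells, 13 came from SCGC1373, where Krt5 reached 2275 CPM against 66.6 to 182.9 CPM on the other plates. Some came from SCGC1380, the plate whose no-template wells A1, A2 and A3 held gene counts. With SCGC1380 left out, cluster 6 had an overlap of 44.4% with its best-matching cluster. On SCGC1380 the cells of cluster 6 held a median of 0.469 gene counts per spike-in count. That median was 0.338 in cluster 7 and 1.51 to 2.19 in clusters 1 to 5. Wells A1, A2 and A3 held 51838, 73567 and 67466 gene counts beside 83160, 130381 and 91899 spike-in counts. Each of these wells thus held more gene counts per spike-in count than the median cell of cluster 6 there. The part of the no-template signal in Ccl21a, Krt5 and the other naming markers of cluster 6 was not tested. Lifr and Ctsl, 2 of its 10 leading genes, are higher in cortical than in medullary cells in these data, and 1 of the 7 cortical markers, Cxcl12, was higher in it than in the other cells by 1 log2 unit. Across all cells Aire and Krt5 had a correlation of -0.390 (within plates -0.602 to -0.271).

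Clusters 7 and 8 stayed unnamed. Cluster 7 (13 cells) was led by Ptprc, Lrmp, Ighm, Trbc2 and Rgcc. Its cells held a median of 145571 counts and a median of 1409 CPM of H2-Aa, the lowest such median of the 8 clusters. It mixed markers of other cells: all 7 thymocyte markers, 6 of 8 tuft markers and 2 of 5 B cell markers were higher in it. Cluster 8 (6 cells, from SCGC1379 and SCGC1381) was led by Tspan1, Rnase4, 2210407C18Rik, Cyp2a5 and Ang. Gp2, a microfold cell receptor, and Insm1, a neuroendocrine factor, had a count in all 6 cells, 5 of 8 neuroendocrine markers were higher in it, and the median cell held 18 antigens. Reg3g was at 82519 CPM in it, a level set by 1 cell: without that cell it was at 18169 CPM, and the median of the 6 cells was 7579 CPM. Over 11 other clustering settings, clusters 2, 6, 5, 3 and 1 kept more than 50% overlap with a cluster in 10, 9, 8, 7 and 6 settings, and clusters 4, 7 and 8 in 3, 2 and 1.

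Markers of later or unrelated states were counted in each cell. At least 3 markers were found in 40 cells for the keratinised state (10 markers), 12 for tuft cells (8), 86 for microfold cells (7), 16 for neuroendocrine cells (8) and 5 for ciliated cells (6). Cluster 3 held 17 of the 40 keratinised-marker cells. Among tuft genes, Il25, the cytokine of gut tuft cells, had no count in any cell, and Trpm5, their cation channel, was at 15.5 CPM in 4.15% of the cells. On SCGC1373, SCGC1379, SCGC1380 and SCGC1381 the 8 tuft markers summed to 152.3, 90.4, 42.9 and 363.7 CPM, and 67.4% of these counts came from 5 cells. Spib, a factor of microfold cells, was found in 73.6% of the cells and Gp2 in 14.7%, so cells with 3 microfold markers rest partly on genes that most medullary cells express.

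Markers of blood, stromal and vessel cells were measured as signs of other cells. At least 3 thymocyte markers were found in 6 cells, 4 of them in cluster 7. The 7 thymocyte markers summed to 37.97, 210.02, 41.7 and 124.2 CPM on the 4 plates, and 61.6% of these counts came from 5 cells. B cell markers reached 3 of 5 in 10 cells, and fibroblast and endothelial markers in 1 cell each, with Kdr, a receptor of vessel endothelium, at 0 in all cells. Myeloid markers reached 3 of 7 in 32 cells. Among these Lyz2, lysozyme, was found in 80.4% of the cells, whereas Itgax, an integrin of dendritic cells, was found in 1.51%. The part of such transcripts in the results above was not tested. Epcam, the epithelial adhesion molecule, had a count in 97.7% of the cells.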

How the data were processed

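RNA of single sorted thymic epithelial cells was amplified with SMART-seq2, per the labels' protocols, after digestion with Liberase and DNase I. The authors deposited counts of reads per gene as whole numbers, without molecular identifiers, in 1 table of 45317 gene rows, 92 spike-in rows and 5 summary rows. The summary rows, 16.3% of the reads, and the spike-in rows stayed out of library totals. HISAT 0.1.6, BWA 0.5.9, HTSeq, MACS2, Trimmomatic and FastQC and the build mm10 are named in the submitters' processing notes. For their roles, and for the strand setting of the counting, nothing was stated in the labels or file headers. Reads of overlapping or antisense genes and of near-identical copies cannot be told apart. Columns were tied to samples by name, and 941 of 2319 columns were not used. Chromatin samples and repeat bulk runs were not analysed here.

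Of 496 wells labelled as wild-type medullary single cells, 286 held at least 50000 gene counts and 1000 genes, and 206 lay under the count minimum. A pair of passing wells of the same group and plate was taken as 1 library where a chi-square over genes with at least 20 counts fell under 5 per gene. Counting such libraries once left 265 cells. Cortical cells were 272 of 384 wells, and reporter-negative cells of the Eed strain 330 of 469 wells, or 319 after the same step. Bulk libraries were summed to 3 units by the number in their titles, because no label says what the R number in the titles means. Doublets were not called; a setting without the 2% of cells with the most genes stands in for this.

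Levels are CPM of counts summed over cells. Shares have exact binomial and levels exact Poisson intervals at 95%. Depth was matched by the exact expected value at 50000 counts per cell. Variable genes came from the log10 squared coefficient of variation against a running median over 301 genes. Cells were clustered by the Leiden method (scanpy 1.11.5, 1000 genes, 15 components, 15 neighbours, resolution 1) on log2(CPM + 1). Clusters were set against the other cells by their mean difference on that scale. A gene was called between cell types past 4-fold with at least 5 CPM in the higher type. Each group of single cells is 1 sample, so no test was run. Calculations used Python 3.11.15 with numpy 2.4.6, pandas 2.3.3 and scipy 1.17.1, and edgeR 4.0.16 in R 4.3.3 for TMM factors of the summed counts only. The ranking of variable genes and the depth matching were tested on simulated data.

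The text names the 6 marker genes, the 3 highest and the rarest members of each of 35 gene lists, members behind counts of 5 or fewer, the 20 most variable genes, the 5 leading genes of each cluster, the genes of co-detected pairs and the 10 genes of highest level; Icam1, Tnfrsf11a, Ins2, Cxcl10, Eed and a few others named outside this rule were chosen after their values were seen. The members and lists were chosen with earlier results of these data known. 1 listed symbol had no row. Gene coordinates and promoters came from RefSeq on GRCm38, where 32165 symbols matched. The result for 1 listed gene is not reported here.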

Additional observations from a re-analysis of the deposited data

Results flagged for a closer look

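Of 6 wells sorted with 100 wild-type medullary cells each, well L1 of SCGC1379 lay apart in several genes. It held Aire at 1035 CPM, against 439.7 CPM in the next well, and Fezf2 at 606 CPM, against 320.8 CPM. In both genes the gap to the next well exceeded Dixon's limit for 6 wells. It was also the lowest of the 6 in H2-Aa, at 7884 CPM against 13947 CPM in the next, and in Cd74, at 2319 CPM against 6902 CPM. The well held 28031 gene counts and was among the shallower of the 6. Aire stood at 966 CPM in the summed single cells, close to this well. In all, 14 groups of values were examined in this way, and chance flags about 1 in 20 groups.

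Signal also appeared in wells that should hold no RNA. The no-template wells A1, A2 and A3 of SCGC1380 held 51838, 73567 and 67466 gene counts, while the other 11 such wells held at most 0.729% of the lowest of these. They carried H2-Aa at 10822, 6593 and 8212 CPM, beside 12467 CPM in the cells. Their part in the results of SCGC1380 was not tested. Without that plate Aire was found in 88.4% of the cells, and in 89.3% of the cells deeper than these wells, beside 89.8% of all cells.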

How the results depend on the processing

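Every value here is a description with no test, so an alternative could only move it. With at least 5 counts as the minimum, Aire was found in 80.8% of the cells, Fezf2 in 81.1% and Cd80 in 34.3%, the median cell held 4330 genes and 7 antigens. With each cell reduced to 50000 counts, Aire was found in 83.5% and Cd80 in 36.8%, and the median cell held 4433 genes and 7.12 antigens. H2-Aa was found in 100% of the cells with a filter of 100000 counts and 2000 genes, and also without SCGC1381, where Ubd reached 99.5%. Resolution 0.5 gave 4 clusters, and the settings for clustering gave 4 to 10. At 8-fold, 703 genes were lower in medullary than in cortical cells, against 1550 at 4-fold.

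The remaining settings kept shares and medians within their 95% intervals and moved levels by at most 1 SD over plates and counts by at most 1.5 times. Levels ranged from 912 to 1027 CPM for Aire, 474.1 to 530.9 CPM for Fezf2, 11898 to 12633 CPM for H2-Aa, 17799 to 19580 CPM for Cd74, 33.3 to 43.4 CPM for Cd80 and 4500 to 5215 CPM for Ubd. Of the 20 most variable genes, 15 to 19 were shared with the main ranking. Between 2387 and 3128 genes were at least 4-fold or 8-fold higher in medullary cells. Counting each well of a shared library separately, leaving those wells out, and requiring more counts than the fullest no-template well were chosen after seeing the data.

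No paired analysis was possible because no result comes from a test. Wild-type and reporter-negative medullary cells share the 4 plates, and their numbers of genes stand side by side within plates in the report. Depth limits what a missing gene means: the shallowest cell held 50093 counts, and a gene found in no cell allows a share of up to 1.13% of cells with a count. No label names an animal, so intervals leave out the spread between mice.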

Other observations

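The genes of highest level in the medullary cells were not all alike in single cells and in bulk. Rn18s-rs5, a ribosomal RNA gene, took 35134 CPM in the summed cells and 6293 ± 528.2 CPM (SD, n = 3) in bulk units. Malat1, a nuclear long non-coding RNA, took 17110 CPM in the cells and 105896 ± 14493 CPM in bulk units. B2m, a class I light chain, stood at 17210 CPM in the cells and 13537 ± 1028 CPM in bulk units, and Actb, cytoplasmic actin, at 9731 and 9402 ± 402.7 CPM. Single cells and bulk units were separate libraries of different preparation.

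Xist, the RNA of the inactive X chromosome, had a count in 94.3% of the cells and stood at 399.3 CPM. In the bulk units it stood at 427.7, 308.5 and 0.738 CPM, and the Y-linked helicase gene Ddx3y at 0.0568, 0.0263 and 141.4 CPM in the same order. The third bulk unit thus differed from the other two and from the cells in both. Among the cells Ddx3y had a count in 3, Eif2s3y in 7, and Kdm5d and Uty in 1 each.

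Genes that varied least between cells, relative to their level, included processed ribosomal pseudogenes such as Rps10-ps1, Rpl15-ps3 and Rpl10-ps3, found in 75.1, 72.1 and 64.9% of the cells.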
